A study of Mus musculus with 17 samples.

Results

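KL tumor cells were compared with tissue-resident macrophages (TRMs) sorted from the same kind of KL lung tumors, 2 libraries of each population, to describe which genes set the EpCAM+ tumor cells apart from the macrophages that live beside them. The members were the 4 KL libraries of these populations, out of 17 samples in the series. Genes were joined by name between the tumor cell table and the TRM table, which shared 12947 genes, and 11343 genes with at least 1 RPKM (read counts divided by gene length and by library depth) in at least 2 of the 4 libraries were tested.

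KL mice carried a conditional oncogene together with floxed Lkb1 (Lkb1fl/fl), the gene whose mouse symbol is Stk11. KLG4 mice, used here only as a second pair of populations, also had the Gpx4m/m genotype, in which both copies of Gpx4 carry a conditional modification. Every group received Ad-Cre, an adenovirus that delivers Cre recombinase, into the airway and then tamoxifen. By the study methods the mice were 8 to 10 weeks old at Ad-Cre. Lungs were taken at 10 weeks per the labels, a time that the study schedule counts from Ad-Cre and that is not an age. Ad-Cre is not restricted to a lung cell type, and which cells had recombined alleles was not measured here. Tumor cells for RNA-seq were sorted as EpCAM+ cells without CD45 and CD31, although the sorting protocol writes CD45.2+ once, and the gate for TRMs was not given in the sources used here. For the tumor cells 2 mice per group are stated, but not how many animals went into each library. For the TRMs nothing says that replicates came from separate mice. The p-values may therefore measure only the spread between libraries.

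Alveolar type II (AT2) cells make surfactant and are a common origin of lung adenocarcinoma, a tumor that keeps keratins, tight junctions and other parts of the epithelial program. The resident macrophages of the airspace take up and degrade surfactant. They depend on GM-CSF from the epithelium, which acts through its receptor and the nuclear receptor PPARG, whereas PU.1 (Spi1) sets the macrophage program itself. In a lung tumor the epithelium and the macrophages exchange growth factors, cytokines and lipids, and each population carries receptors for what the other makes.

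The recovered depth was 36.6 and 30.2 M counted reads in the KL tumor cell libraries and 10.0 and 9.14 M in the KL TRM libraries, so low levels are measured less precisely in TRMs. Replicates of a population differed by a median of 0.27 on the log2 scale in tumor cells and 0.44 in TRMs. Of all reads, 7.61% and 8.54% in tumor cells and 31.6% and 22.5% in TRMs fell on mitochondrial genes or nuclear copies of them. Xist, which marks female cells, was at 7.07 and 5.62 rescaled RPKM in tumor cells and 0.212 and 0.453 in TRMs, while the Y-linked Eif2s3y was at 8.32 and 11.4 in tumor cells and 10.1 and 13.3 in TRMs. Each tumor cell library held transcripts of both sexes, and the number and sex of animals per library are not stated. Sex makeup thus moves with the population, and its part in the differences was not tested. The populations were deposited in separate tables, so the table and the cell type cannot be told apart. In bulk libraries, fewer cells of a type and less RNA per cell cannot be told apart either.

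Levels below are RPKM rescaled to a common sum over the joined genes without genes named mt-. A gene was called at an adjusted p under 0.05 in limma (Benjamini-Hochberg over all genes tested) and at least 2-fold, on log2(rescaled RPKM + 0.1), a scale that understates the change of low genes. By this measure 5026 genes (44.3% of those tested) were higher in tumor cells and 1136 (10.0%) were higher in TRMs, so 81.6% of the calls lay on the tumor cell side. This split rested on the scaling. Genes of the nuclear copies of mitochondrial sequence on chromosome 1, which the mt- names do not cover, held 48.2% and 38.0% of the rescaled sum in TRMs against 11.5% and 12.2% in tumor cells, and the median difference of all genes was 0.91 toward tumor cells. With the copies also left out, the share of calls on the tumor cell side was 60.3%, and it was 50.04% with TMM factors and 49.6% with quantile scaling. For genes above 20 rescaled RPKM in both populations, a difference was lower by 0.87 to 0.88 under TMM scaling.

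A gene is therefore described below as higher in one population only where the same call was made under 5 scalings: the rescaling above, the rescaling without the copies, quantile, TMM, and limma-voom on the recovered reads. Under all 5 scalings 1917 genes (16.9%) were higher in tumor cells and 1132 genes (9.98%) were higher in TRMs. Under TMM scaling 1093 of the former differed by at least 4-fold and 277 by at least 16-fold, and of the latter 1073 and 398. With the common sum, which shifts genes toward tumor cells, these counts were 1805 and 492, and 698 and 242. These 2 percentages are the background for each list count below. A listed gene found in 1 population only passes the level filter through that population, so the counts describe the lists and support nothing beyond that. Of 580 listed genes, 449 were tested, 92 were missing from at least 1 table and 39 were under the filter.

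**Figure D1:**
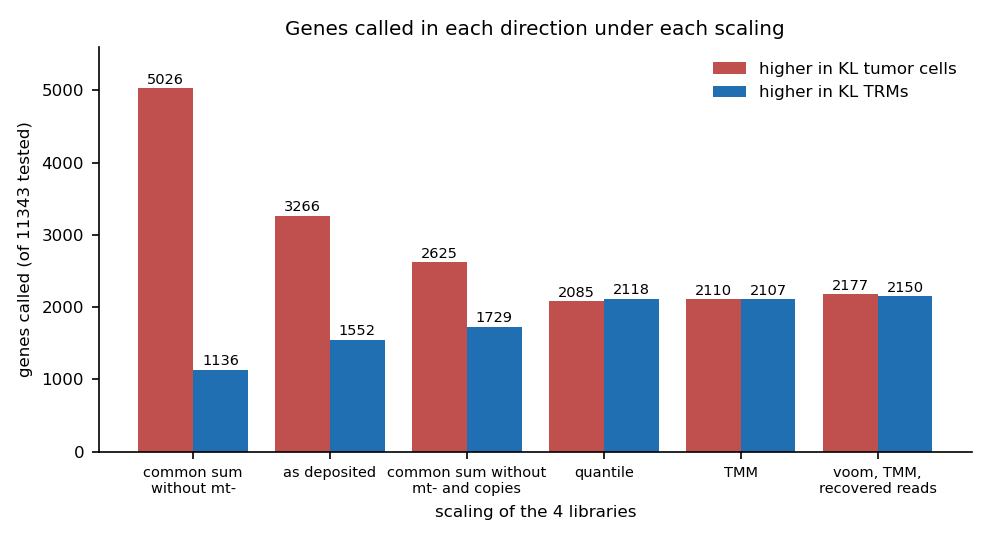
Number of genes called in each direction (y axis) among 11343 genes tested under each of 6 scalings of the 4 KL libraries (x axis), as bars from 0. The tumor cell bar falls from 5026 to 2110 between the common sum and TMM scaling, while the TRM bar rises from 1136 to 2107.

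**Figure D2:**
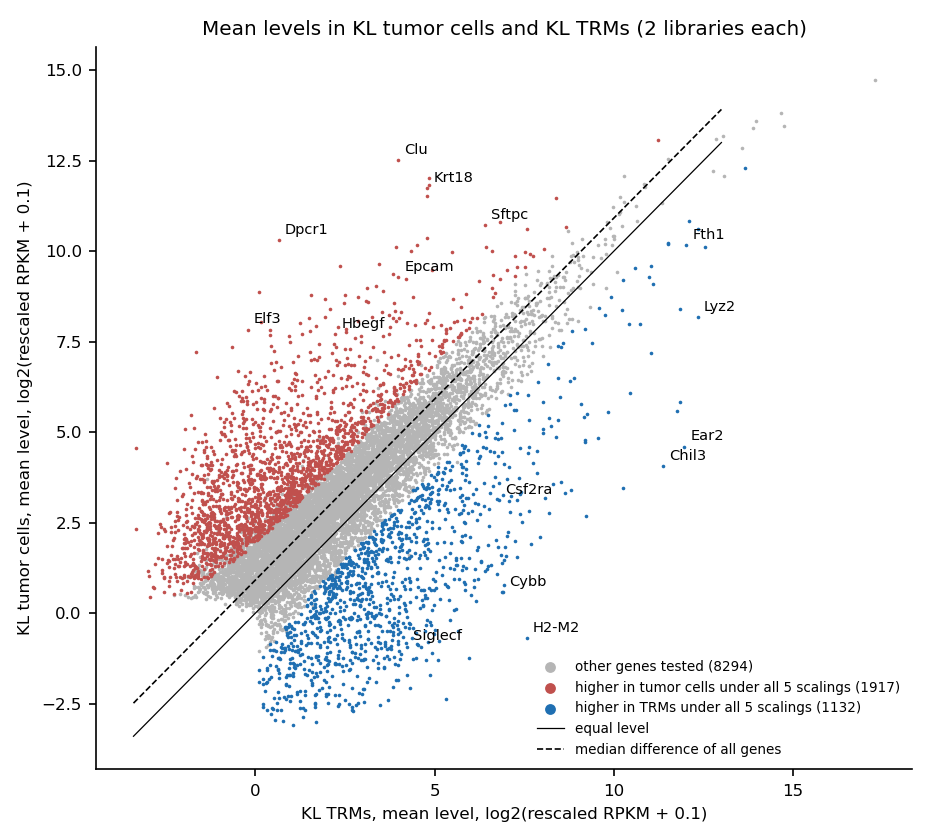
Mean level of each of 11343 genes in KL TRMs (x axis) and in KL tumor cells (y axis), both as log2(rescaled RPKM + 0.1) over 2 libraries. Genes higher in tumor cells under all 5 scalings (1917, red) lie above the dashed line of the median difference and those higher in TRMs (1132, blue) lie below the solid line of equal level.

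The labels were first checked against the sort antigens. Epcam, the adhesion molecule used to sort tumor cells, was at 730.4 and 518 rescaled RPKM in tumor cells and 13.8 and 17.6 in TRMs, a log2 difference of 5.30 ± 0.26 (SE). Ptprc, which encodes CD45 of all leukocytes, was at 0.954 and 2.55 in tumor cells and 25.7 and 38.3 in TRMs (log2 difference -4.23 ± 0.44). Both genes followed their labels without overlap. Pecam1 (CD31 of endothelium) was low in both, at 2.56 and 1.44 in tumor cells and 1.88 and 2.07 in TRMs, and was not called (log2 difference -0.03, adjusted p = 0.948 in limma). Without tumor cell replicate 1 the difference was -0.43 and without tumor cell replicate 2 it was 0.36.

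All 14 tested AT2 and surfactant genes of 15 listed were higher in tumor cells, with a median log2 difference of 4.15. Sftpc, the surfactant protein of AT2 cells, was at 1516 and 1860.5 rescaled RPKM in tumor cells and 71.9 and 96.5 in TRMs (log2 difference 4.33 ± 0.24). Sftpb, needed to spread the surfactant film, was at 1008 and 1029 against 22.9 and 17.2 (5.67 ± 0.23). Sftpd, a collectin of innate defence, gave the same difference at 1046 and 1259.9 against 19.6 and 25.8 (5.67 ± 0.24), and Lamp3, of the lamellar bodies that store surfactant, was at 67.1 and 105 against 1.93 and 2.37 (5.23 ± 0.31). The TRM libraries were never at 0 for these genes: their mean was a median of 5.38% of the tumor cell mean, from 1.34% for Muc1 to 21.3% for Napsa, the aspartic protease that processes surfactant protein B. The summed level of the list was 4368 and 5285 in tumor cells and 151 and 174 in TRMs. The part of epithelial RNA in the TRM libraries was not tested.

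Genes of other airway and alveolar cell types were high in the tumor cell libraries as well. Scgb1a1, the secretoglobin of club cells, was at 3581 and 4753 rescaled RPKM in tumor cells and 15.96 and 41.6 in TRMs (log2 difference 7.32 ± 0.39). Scgb3a1, a secretoglobin of the larger airways, was at 232 and 203 against 4.14 and 7.28 (5.28 ± 0.30). All 6 tested genes of the club and ciliated list were higher in tumor cells, and 6 more were in the tumor cell table only, among them Foxj1, the regulator of motile cilia, at 16.2 and 21.2 RPKM as deposited. Of 10 alveolar type I genes, 6 were higher in tumor cells, among them Ager at 488 and 553 against 11.5 and 8.87 and the homeodomain gene Hopx at 35.7 and 39.1 against 5.88 and 5.48 (2.70 ± 0.26). Cldn18, a claudin of the alveolar barrier, was at 63.1 and 77.1 against 0.852 and 0.489 (6.54 ± 0.34). Cav1, Rtkn2 and Akap5 were not called under all 5 scalings. The 1 gene on the other side was Pdpn, a mucin-like glycoprotein of type I cells that macrophages can also make, which was higher in TRMs at 21.9 and 23.8 against 5.18 and 4.90 (log2 difference -2.16 ± 0.27). How many normal AT2, club or ciliated cells passed the EpCAM gate beside tumor cells was not tested.

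Keratins and junction proteins had the highest summed level of the epithelial lists. Of 17 tested genes, 16 were higher in tumor cells, and their summed level was 10621 and 8744 rescaled RPKM in tumor cells against 152 and 190 in TRMs. Krt18 (GRCm38 chr15:102028216-102032026, plus strand) was at 3855 and 2965 in tumor cells and 26.9 and 28.5 in TRMs, with a log2 difference of 6.93 ± 0.23. Its filament partner Krt8, encoded beside it on the other strand, was at 3145 and 2702 against 24.6 and 30.04 (6.74 ± 0.23). Krt7, a keratin of simple epithelium, was at 444 and 381 against 3.71 and 3.73 (6.75 ± 0.23). For these 3 keratins the populations lay far further apart than their replicates. Cdh1, the E-cadherin of adherens junctions, was at 252 and 268 against 13.9 and 23.7 (3.83 ± 0.28). The tight junction gene Cldn4 was at 165 and 137 against 1.36 and 1.31 (6.71 ± 0.27). F11r, a junction adhesion molecule that leukocytes carry too, was not called under all 5 scalings, at 95.2 and 78.4 against 32.5 and 42.1. TRM means were a median of 2.01% of the tumor cell means over these 17 genes.

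The epithelial transcription factors could be compared for 5 of 16 listed genes, and all 5 were higher in tumor cells. Elf3, an epithelial ETS factor, was at 250.1 and 205 rescaled RPKM in tumor cells and 0.447 and 1.07 in TRMs (log2 difference 8.15 ± 0.37). Foxa2, a pioneer factor of lung epithelium, was at 41.2 and 42.2 against 0.627 and 0.501 (5.98 ± 0.32). The other 11 were in the tumor cell table only, so no difference can be given. They included Nkx2-1, the lineage factor of the lung, at 16.02 and 18.8 RPKM as deposited, Foxa1 at 29.2 and 24.4, Klf5 at 40.02 and 37.4 and Sox9 at 10.2 and 9.35. Hnf4a, a gut and liver regulator, was at 16.4 and 11.8 rescaled RPKM in tumor cells and 0.308 and 0.615 in TRMs.

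By size, the 10 largest differences toward tumor cells among genes in both tables were those of Dpcr1, Ptprn, Krt23, Clu, Elf3, Krt20, Irx3, Ttc9, Wfdc2 and Tspan8. Dpcr1, a mucin-like gene of the MHC region (chr17:35635752-35643695), was at 1243 and 1300.3 rescaled RPKM in tumor cells and 1.77 and 1.17 in TRMs (log2 difference 9.69 ± 0.26, adjusted p = 1.65e-07 in limma). Clu (chr14:65968483-65981548), the secreted chaperone clusterin, was the most abundant tumor cell gene that the naming rule admits. The rule takes genes in both tables and leaves out predicted and mitochondrial genes. Clu was at 6159 and 5593 against 10.95 and 20.5 (8.60 ± 0.30, adjusted p = 2.3e-07 in limma). Ptprn, a receptor-like phosphatase of secretory granules, was at 146 and 149 against 0.0389 and 0.396 (9.13 ± 0.52). Krt20, a keratin of gut epithelium, varied most of these 10 between the tumor cell libraries, at 372 and 155 (8.13 ± 0.63), and Krt23 was at 562 and 368 against 0.950 and 1.012 (8.72 ± 0.28). Irx3, a homeobox factor, was at 8.04, Ttc9 at 7.77, Wfdc2, a secreted protease inhibitor of airway epithelium, at 7.47 and Tspan8, a tetraspanin, at 7.42 on the log2 difference scale.

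The 10 most abundant tumor cell genes also included Sfn, the epithelial 14-3-3 sigma protein, at 3753 and 3562 rescaled RPKM against 18.2 and 39.0 in TRMs (log2 difference 7.09 ± 0.33), and Ezr, the linker of membrane and actin, at 2816 and 2835 against 311 and 356 (3.09 ± 0.23). The chaperone Hsp90ab1 (1.80) and the ubiquitin gene Ubb (1.304) were called under the common sum but not under every scaling. Ptma and Myl6 were abundant in both populations and were not called, with log2 differences of 0.92 and 0.64 that became 0.03 and -0.25 under TMM scaling. Without TRM replicate 2, Ptma was called toward tumor cells (1.06, adjusted p = 0.0171 in limma). The ribosomal protein gene Rpl19 was not called either (0.18, and -0.70 under TMM scaling). No gene that the naming rule admits was listed at 0 in both libraries of the other population and called.

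On the TRM side, 16 of 17 tested alveolar macrophage genes were higher in TRMs, with a median log2 difference of -5.11. Ear2 (chr14:44102654-44103534), a ribonuclease of the eosinophil-associated family, was at 3949.8 and 4001 rescaled RPKM in TRMs and 16.8 and 31.5 in tumor cells (log2 difference -7.43 ± 0.30, adjusted p = 4.94e-07 in limma). Chil3 (chr3:106147554-106167564), the chitinase-like protein Ym1, was at 2438 and 2849.8 against 11.17 and 22.04 (-7.38 ± 0.31). Both genes have near-identical relatives among which reads could be split. Siglecf, the lectin used to identify alveolar macrophages, was at 16.5 and 20.9 in TRMs against 0.179 and 0.673 (-5.33 ± 0.50), and the scavenger receptor Marco was at 129 and 122 against 3.12 and 3.75 (-5.16 ± 0.25). Car4, a membrane carbonic anhydrase, was at 360.5 and 438 against 7.06 and 12.6 (-5.38 ± 0.30), and Itgax, which encodes CD11c, at 48.2 and 66.8 against 1.14 and 2.13 (-5.09 ± 0.36). Fabp5, a fatty acid binding protein of many epithelia as well, differed less, at 311 and 388 against 109 and 72.1 (-1.97 ± 0.26). The remaining gene was Krt79, at 5.39 and 5.76 against 2.95 and 2.77, which fell short of 2-fold with the common sum (-0.94) and was called toward TRMs under the other 4 scalings (-1.80 under TMM).

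All 18 general macrophage genes were higher in TRMs, with a median log2 difference of -4.28. Lyz2, the lysozyme of myeloid cells that AT2 cells also make, was the most abundant TRM gene by the same naming rule, at 4922 and 5436 rescaled RPKM, and was at 244 and 332 in tumor cells (log2 difference -4.18 ± 0.25). Mertk, a receptor for apoptotic cells, was at 23.6 and 35.2 against 0.505 and 0.970 (-5.17 ± 0.40), Mrc1, the mannose receptor, at 56.4 and 88.5 against 3.12 and 3.37 (-4.41 ± 0.30), and Adgre1 (F4/80) at 17.2 and 15.1 against 0.424 and 0.780 (-4.58 ± 0.39). Itgam (CD11b), which alveolar macrophages carry at a low level, was at 9.33 and 10.1 against 1.93 and 4.27 (-1.72 ± 0.40), the smallest difference of the list, which was not called without tumor cell replicate 1 (-1.16, adjusted p = 0.0596 in limma). Macrophage transcripts were low in the tumor cell libraries but not absent: the tumor cell mean was a median of 2.73% of the TRM mean over the alveolar macrophage genes, from 0.607% for Ear2 to 51.3% for Krt79, and 5.26% over the general macrophage genes. Of 35 such genes, 30 were higher in tumor cell replicate 2 than in replicate 1, with a median ratio of 1.67. The part of macrophage RNA in the tumor cell libraries was not tested.

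Of 15 macrophage regulators tested, 9 were higher in TRMs. Spi1 (PU.1) was at 55.0 and 70.1 rescaled RPKM in TRMs and 1.91 and 3.68 in tumor cells (log2 difference -4.49 ± 0.35), and Tfec, a factor of the MITF family, was at 10.3 and 10.1 against 0.101 and 0.234 (-5.31 ± 0.45). Pparg, which drives alveolar macrophage maturation, was at 25.3 and 31.4 in TRMs and 9.36 and 5.55 in tumor cells, a smaller difference of -1.95 ± 0.32. Klf2, a factor of quiescence that many cell types use, went the other way at 33.8 and 29.8 in tumor cells against 2.15 and 2.46 (3.73 ± 0.29). Cebpa, shared by macrophages and AT2 cells, was at 26.3 and 25.7 in tumor cells and 5.76 and 9.61 in TRMs, and its call was lost under other scalings. Cx3cr1, a receptor of monocyte-derived cells, was low but higher in TRMs, at 4.80 and 3.25 against 0.222 and 0.381 (-3.36 ± 0.48). It was the 1 gene of 4 tested in the monocyte-derived list with a call under all 5 scalings. Ccr2 of monocytes was under the filter.

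The 10 largest differences toward TRMs among genes in both tables were those of H2-M2, Ear2, Chil3, Serpina3g, Atp6v0d2, Cxcl9, Cybb, Mcoln3, Ctss and Arl11. H2-M2 (chr17:37480851-37483552), a non-classical MHC class I gene, was at 195 and 184 rescaled RPKM in TRMs against 0.464 and 0.579 in tumor cells (log2 difference -8.26 ± 0.28, adjusted p = 2.3e-07 in limma). Atp6v0d2, a subunit of the lysosomal proton pump, was at 512 and 680.5 against 4.43 and 8.27 (-6.58 ± 0.31). Cybb, the catalytic subunit of the phagocyte NADPH oxidase, was at 98.4 and 139 against 0.581 and 2.22 (-6.54 ± 0.50). Arl11 (-6.16), Mcoln3 (-6.49), a lysosomal cation channel, and Serpina3g (-7.23), a serine protease inhibitor, completed the list. Cxcl9, a chemokine induced by interferon gamma, was at 21.4 and 36.8 against 0.145 and 0.271 (-6.54 ± 0.43), while Ctss, the cathepsin that trims the MHC class II invariant chain, was at 3034 and 3909 against 33.6 and 61.3 (-6.24 ± 0.30).

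**Figure D3:**
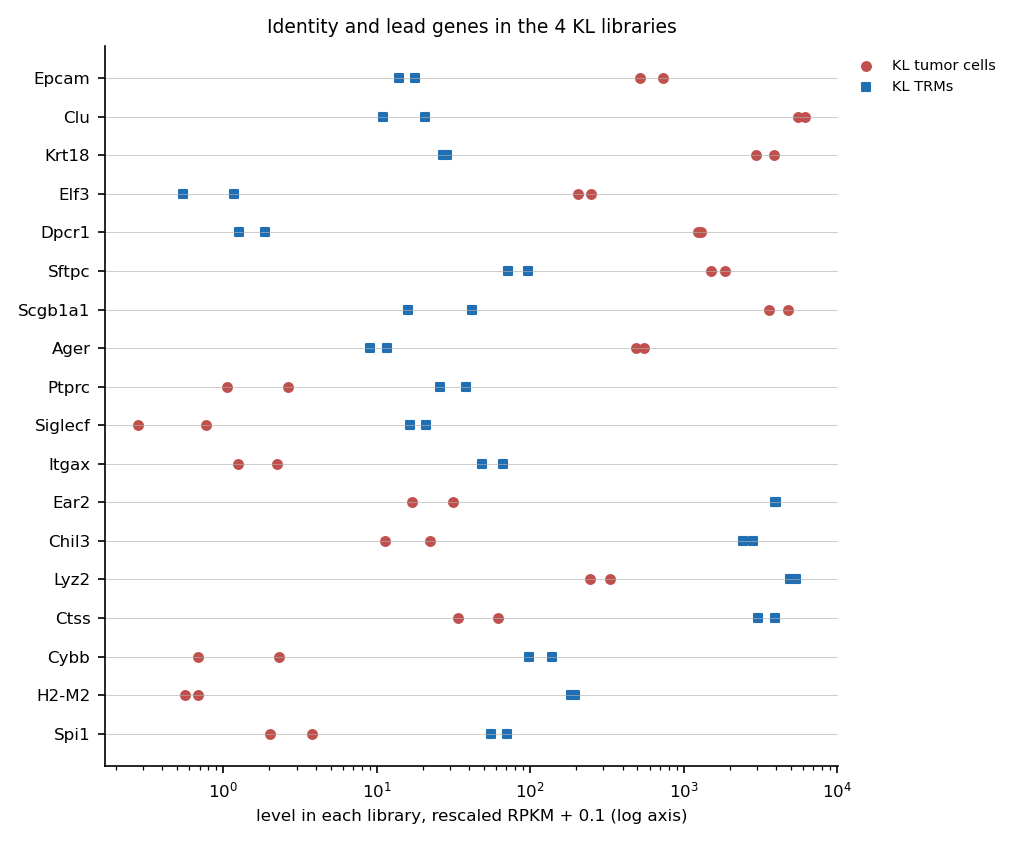
Level of 18 identity and lead genes in each of the 4 KL libraries (x axis, rescaled RPKM + 0.1, log axis), with tumor cells as circles and TRMs as squares. The circles and squares of each gene stand apart by more than the gap between its own replicates, as for Epcam at 730.4 and 518 against 13.8 and 17.6.

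Promoter sequence was examined because members of the macrophage program moved together, and the window was the 250 bases before the RefSeq start (GRCm38.p6). Of the genes tested, 7965 (70.2%) had a window. The letters searched on both strands were GAGGAAGT for PU.1, TGAGTCA for AP-1, TGTTTAC for FOXA and CAAGTG for NKX2-1. The PU.1 letters were in 2.79% of 27025 genes with a window, 3.21% of the tested genes, 8.65% of those higher in TRMs and 2.06% of those higher in tumor cells. For AP-1 the shares were 5.16%, 3.9%, 5.77% and 5.96%, for FOXA 3.54%, 2.71%, 4.19% and 3.02%, and for NKX2-1 13.2%, 11.3%, 15.1% and 13%, in the same order. Matches are descriptions of letters and were not tested. The windows of 3 listed genes higher in TRMs are shown for the PU.1 letters: Ctsc, a cathepsin that activates serine proteases (chr7:88277835-88278084, plus strand), Fcgr4, an activating Fc receptor (chr1:171018676-171018925, plus strand), and Havcr2, the receptor TIM-3 (chr11:46454681-46454930, plus strand). The windows of Cldn4 (chr5:134946935-134947184, minus strand) and Sftpb (chr6:72304360-72304609, plus strand) are shown for the AP-1 letters in genes higher in tumor cells. Each is written from 5′ to 3′ and capitals mark the letters of any of the 4 motifs or their reverse complement, among them 1 NKX2-1 match in Fcgr4.
Ctsc: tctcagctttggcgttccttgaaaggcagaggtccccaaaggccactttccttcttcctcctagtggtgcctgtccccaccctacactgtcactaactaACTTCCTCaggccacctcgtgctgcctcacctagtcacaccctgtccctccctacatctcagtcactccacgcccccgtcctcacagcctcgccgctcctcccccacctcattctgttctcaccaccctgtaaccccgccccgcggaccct
Fcgr4: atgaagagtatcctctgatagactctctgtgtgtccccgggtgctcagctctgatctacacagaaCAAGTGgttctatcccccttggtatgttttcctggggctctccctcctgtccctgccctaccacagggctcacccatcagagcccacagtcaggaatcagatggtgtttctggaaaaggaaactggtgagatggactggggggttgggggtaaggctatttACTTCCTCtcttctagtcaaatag
Havcr2: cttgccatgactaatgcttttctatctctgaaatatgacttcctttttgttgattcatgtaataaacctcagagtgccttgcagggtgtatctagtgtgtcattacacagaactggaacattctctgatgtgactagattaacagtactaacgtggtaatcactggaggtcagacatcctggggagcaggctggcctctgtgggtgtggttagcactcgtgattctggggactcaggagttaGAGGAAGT
Cldn4: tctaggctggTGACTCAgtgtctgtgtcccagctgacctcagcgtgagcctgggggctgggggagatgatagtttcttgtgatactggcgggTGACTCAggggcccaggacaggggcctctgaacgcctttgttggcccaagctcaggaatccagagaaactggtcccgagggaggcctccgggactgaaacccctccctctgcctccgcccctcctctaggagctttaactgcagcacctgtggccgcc
Sftpb: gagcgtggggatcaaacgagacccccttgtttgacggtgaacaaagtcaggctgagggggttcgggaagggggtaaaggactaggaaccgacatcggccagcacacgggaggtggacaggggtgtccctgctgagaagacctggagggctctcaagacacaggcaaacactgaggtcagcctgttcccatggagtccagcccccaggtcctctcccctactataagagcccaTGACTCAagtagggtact

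In Havcr2 the PU.1 letters ended at the base before the start, in Fcgr4 they began 24 bases before it and in Ctsc 151 bases before it. Havcr2 was at 51.4 and 59.6 rescaled RPKM in TRMs and 1.59 and 3.15 in tumor cells (log2 difference -4.57 ± 0.35), Fcgr4 at 34.6 and 35.3 against 0.199 and 0.780 (-6.09 ± 0.49), and Ctsc at 53.7 and 60.2 against 24.5 and 24.3 (-1.22 ± 0.23). Cldn4 held the AP-1 letters at 240 and 158 bases before its start and Sftpb at 18 bases before it.

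The exchange of signals was examined by ligand and receptor. Csf2, which encodes GM-CSF, was in the tumor cell table only, at 32.3 and 16.2 RPKM as deposited, so no difference can be given. Its receptor chains were higher in TRMs: Csf2ra was at 95.8 and 126 rescaled RPKM against 7.61 and 9.72 in tumor cells (log2 difference -3.66 ± 0.26), and Csf2rb, which has the near-identical copy Csf2rb2, was at 29.2 and 44.0 against 1.13 and 2.84 (-4.24 ± 0.43). Of 11 tested genes of this axis, 7 were higher in TRMs and none was higher in tumor cells under all 5 scalings, against 2 under the common sum. Csf1r, the receptor of macrophage colony-stimulating factor, was higher in TRMs at 12.96 and 14.2 against 1.16 and 1.54 (-3.25 ± 0.34). Its ligand Csf1 was low in both populations, at 0.793 and 1.25 in tumor cells and 1.501 and 1.499 in TRMs, with a call toward TRMs under TMM (-1.36) but not with the common sum (-0.54), and Il34, its other ligand, was in the tumor cell table only at 2.34 and 1.99 RPKM as deposited.

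Growth factors were the highest of the epithelial ligands. Areg, a ligand of EGFR, was at 1894 and 1666 rescaled RPKM in tumor cells and 166 and 60.9 in TRMs (log2 difference 4.14 ± 0.40). Hbegf, another EGFR ligand that was placed in the macrophage list, was at 222 and 195 in tumor cells against 3.06 and 6.09 (5.55 ± 0.33). Vegfa, the endothelial growth factor, was at 278 and 259 against 12.3 and 17.7 (4.18 ± 0.25). Tumor cells were thus higher for both EGFR ligands as well as for Lif, a cytokine of the IL-6 family (4.34), and Jag1, a Notch ligand (3.40). Of 22 epithelial ligands, 10 were tested and 6 were higher in tumor cells, while 11 were in the tumor cell table only, among them the alarmin Il33 at 168 and 130 RPKM as deposited and Bmp4 at 47.6 and 49.4. The chemokine Cxcl1 was at 75.04 and 48.7 in tumor cells and 142 and 65.9 in TRMs, where the populations overlapped. It was not called with the common sum (-0.68), but was called toward TRMs under TMM (-1.56, adjusted p = 0.04999 in limma) and without TRM replicate 2 (-1.23, adjusted p = 0.00479). Cxcl16, a chemokine held on the membrane, was not called under all 5 scalings, at 72.3 and 61.1 against 19.8 and 20.8.

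The receptors of the tumor cells included Erbb3, a partner of EGFR in signalling, at 13.5 and 20.7 rescaled RPKM against 0.384 and 0.247 in TRMs (log2 difference 5.36 ± 0.41), and Met, the receptor of hepatocyte growth factor, at 6.32 and 7.42 against 0.0645 and 0.606 (4.35 ± 0.64). Egfr itself was in the tumor cell table only and low, at 0.598 and 0.765 RPKM as deposited. Of 14 tested receptors of epithelium, 9 were higher in tumor cells and none was higher in TRMs. All 16 tested receptors of macrophages were higher in TRMs, with a median log2 difference of -3.37.

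Among cytokines of macrophages, Il1b, the inflammasome product, was at 996 and 511 rescaled RPKM in TRMs and 18.02 and 38.5 in tumor cells (log2 difference -4.75 ± 0.40). Il1a was at 399.8 and 121 against 23.4 and 39.1 (-2.86 ± 0.48), with a wide spread between the TRM libraries. Their receptor Il1r1 was higher in tumor cells, at 3.57 and 4.76 against 0.337 and 0.529 (3.01 ± 0.45). Oncostatin M showed the same arrangement. Osm was at 47.1 and 49.9 in TRMs against 1.80 and 3.56 (-4.20 ± 0.35), and its receptor Osmr was at 3.11 and 4.39 in tumor cells against 0.116 and 0.400 (3.53 ± 0.54), with the shared chain Il6st also higher in tumor cells (2.19). The chemokine Ccl6 was the highest macrophage ligand at 3521 and 3835 against 37.9 and 75.6 (-6.10 ± 0.32), and its relative Ccl9 was at 118 and 94.3 against 1.49 and 2.51 (-5.70 ± 0.31). Ccl17, a T cell chemokine, was at 58.8 and 48.3 against 0.973 and 4.53 (-4.58 ± 0.56). These 3 chemokines were TRM genes. Igf1, insulin-like growth factor, was at 5.94 and 3.91 in TRMs against 0.278 and 0.272 (-3.71 ± 0.45), and its receptor Igf1r, not called under quantile scaling, was low in both, at 1.20 and 1.43 in tumor cells against 0.197 and 0.224. Spp1, osteopontin, was at 232 and 191 in TRMs and 136 and 103 in tumor cells, not called with the common sum (-0.83) but called toward TRMs under the other 4 scalings (-1.71 under TMM). Of 19 tested macrophage ligands, 11 were higher in TRMs and 2, Hbegf and Gas6, were higher in tumor cells. Tnf was at 79.9 and 19.2 in TRMs and 20.7 and 15.1 in tumor cells and was not called (log2 difference -1.15, adjusted p = 0.0895 in limma). Without TRM replicate 2, the library at 19.2, the difference was -2.17 and was called (adjusted p = 0.000144 in limma), as it was without tumor cell replicate 1 (-1.37, adjusted p = 0.00637) and with the replicate block (-1.15, adjusted p = 0.0204). Without TRM replicate 1 it was -0.12.

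Gas6 bridges dying cells to the receptors AXL and MERTK. It was at 10.2 and 15.9 rescaled RPKM in tumor cells and 1.56 and 1.09 in TRMs (log2 difference 3.20 ± 0.38), whereas Axl was at 68.0 and 89.7 in TRMs against 1.48 and 3.64 (-5.00 ± 0.40). In the pair that inhibits phagocytosis, the receptor Sirpa was higher in TRMs at 72.3 and 97.7 against 1.25 and 3.04 (-5.35 ± 0.40). Its ligand Cd47 was at 9.16 and 8.42 in tumor cells and 11.7 and 18.6 in TRMs, under 2-fold with the common sum (-0.74) but called toward TRMs under the other 4 scalings (-1.62 under TMM). Cd24a, another inhibitory ligand, was higher in tumor cells at 146 and 136 against 17.0 and 14.1 (3.17 ± 0.23). Cd274, which encodes PD-L1, was higher in TRMs at 50.3 and 63.8 against 3.29 and 7.85 (-3.45 ± 0.39), and Nectin2, a ligand of the TIGIT family, was higher in tumor cells at 56.3 and 55.6 against 0.992 and 2.44 (5.07 ± 0.39). Lgals9, the galectin that binds TIM-3, was at 26.7 and 30.3 in tumor cells against 10.28 and 10.28 and lost its call under other scalings.

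**Figure D4:**
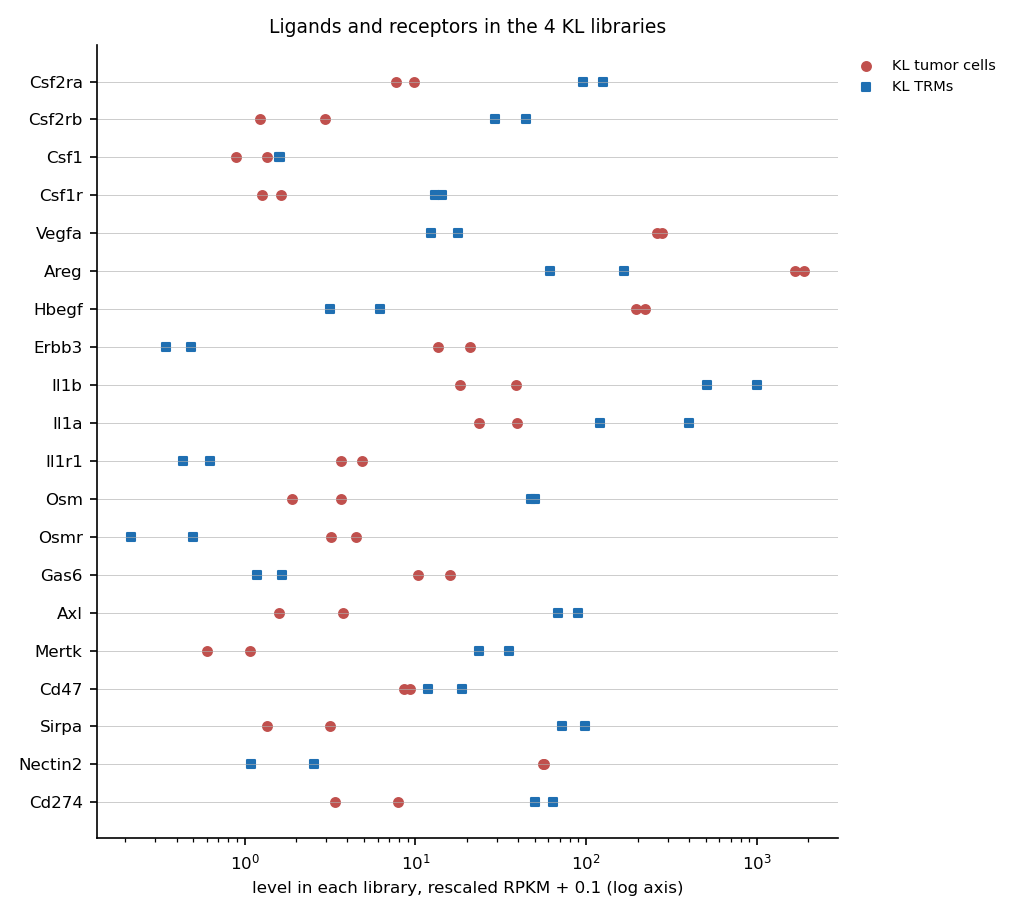
Level of 20 ligands and receptors in each of the 4 KL libraries (x axis, rescaled RPKM + 0.1, log axis), with tumor cells as circles and TRMs as squares. Receptors such as Csf2ra, Axl and Sirpa are higher in TRMs, ligands such as Areg, Hbegf and Vegfa are higher in tumor cells, and Csf1 is at or below 1.501 rescaled RPKM in every library.

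Lipid genes differed between the populations. Of 13 tested fatty acid synthesis genes, 9 were higher in tumor cells and none was higher in TRMs, with a median log2 difference of 2.50. Scd1, the desaturase that makes monounsaturated fatty acids, was at 115 and 173 rescaled RPKM in tumor cells and 4.75 and 3.89 in TRMs (log2 difference 5.01 ± 0.28). Me1, the malic enzyme that supplies NADPH, was at 37.6 and 37.9 against 1.67 and 0.411 (5.31 ± 0.51). Fasn, the fatty acid synthase, was at 6.12 and 12.2 against 0.950 and 0.958 (3.05 ± 0.42), and its regulator Srebf1 at 9.18 and 9.75 against 1.14 and 2.20 (2.50 ± 0.39). Cholesterol synthesis did not show this, since only Pmvk, a kinase of the mevalonate pathway, was higher in tumor cells under all 5 scalings (2.01), against 10 of 16 genes under the common sum.

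Of 16 lipid uptake and efflux genes tested, 10 were higher in TRMs and 2 in tumor cells. Lpl, the lipoprotein lipase, was at 117 and 128 rescaled RPKM in TRMs and 2.12 and 3.18 in tumor cells (log2 difference -5.50 ± 0.28). Abcg1, the cholesterol exporter that keeps alveolar macrophages free of lipid, was at 21.4 and 28.5 against 0.992 and 1.39 (-4.28 ± 0.34). The apolipoprotein gene Apoe was at 294 and 292 against 38.2 and 45.1 (-2.82 ± 0.22). Lipa, the lysosomal acid lipase, was at 41.7 and 55.2 against 2.59 and 2.998 (-4.06 ± 0.29). Cd36, the fatty acid receptor often counted as a macrophage gene, was at 63.7 and 96.9 in tumor cells and 28.7 and 47.6 in TRMs, and was called in neither direction under all 5 scalings. Of the 2 genes higher in tumor cells, Npc2, a carrier of cholesterol out of the lysosome, was at 243 and 229 against 60.9 and 64.2 (1.91 ± 0.22).

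For storage of triacylglycerol, 6 of 22 tested genes were higher in TRMs and 2 were higher in tumor cells. The droplet coat gene Plin2 was at 203 and 272 rescaled RPKM in TRMs and 86.8 and 79.1 in tumor cells (log2 difference -1.50 ± 0.24), and Cidec, which fuses droplets, was at 5.69 and 8.64 against 0.270 and 0.374 (-4.09 ± 0.44). The final enzymes of synthesis were low in both populations. Dgat1 was at 3.09 and 5.09 in tumor cells and 4.57 and 8.46 in TRMs, not called with the common sum (-0.63) but called toward TRMs under the other 4 scalings (-1.50 under TMM). Dgat2 was at 1.23 and 0.729 against 0.857 and 1.54 and was called toward TRMs under quantile scaling alone. The lipin phosphatases split, with Lpin1 higher in TRMs (-3.39) and Lpin2 higher in tumor cells (2.69). So did the lipases, with Mgll higher in TRMs (-4.28) and Lipe higher in tumor cells (3.35).

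Gpx4 (chr10:80047166-80056439, plus strand), the peroxidase that reduces lipid peroxides and the gene altered in KLG4 mice, was at 109 and 94.9 rescaled RPKM in KL tumor cells and 74.1 and 79.8 in KL TRMs. Its log2 difference of 0.40 ± 0.22 was not called (adjusted p = 0.141 in limma) and turned to -0.48 under TMM scaling. In KLG4, gene totals of Gpx4 were 66.4 and 72.9 in tumor cells and 62.8 and 62.9 in TRMs (0.15, not called). The alternative suppressor of ferroptosis, Aifm2 (FSP1), was higher in TRMs at 12.6 and 20.5 against 3.51 and 3.53 (-2.16 ± 0.33). Gclc, the limiting enzyme of glutathione synthesis, was higher in tumor cells at 195 and 283 against 4.74 and 4.86 (5.59 ± 0.26). It was the only one of 15 tested suppressors higher in tumor cells under all 5 scalings, against 7 under the common sum, and Aifm2 and Slc7a11 were higher in TRMs. Slc7a11, the cystine importer, was at 5.06 and 4.76 in TRMs against 1.28 and 2.94 (-1.29 ± 0.44), and its call was lost without tumor cell replicate 1 (-0.72, adjusted p = 0.304 in limma) or TRM replicate 1 (-1.25, adjusted p = 0.058 in limma).

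Of 11 tested genes listed as drivers of ferroptosis, 4 were higher in each population, but the 4 in tumor cells include Acsl3, which is known to protect from it. Acsl4, which loads polyunsaturated fatty acids into membranes, was at 37.6 and 47.6 rescaled RPKM in tumor cells and 7.42 and 7.82 in TRMs (log2 difference 2.46 ± 0.26). Acsl3, a relative that handles monounsaturated fatty acids, was also higher in tumor cells at 33.7 and 25.1 against 1.63 and 0.341 (5.06 ± 0.56). The lipoxygenase Alox5 and its helper Alox5ap were TRM genes, with Alox5ap at 196 and 198 against 3.83 and 10.0 (-4.97 ± 0.39). For iron, the importer Tfrc was higher in tumor cells at 11.7 and 17.6 against 1.495 and 1.58 (3.14 ± 0.35). The storage protein Fth1 was higher in TRMs at 3903 and 4375 against 1215 and 1089 (-1.85 ± 0.24), as was Ncoa4, which delivers ferritin for degradation (-2.03). The light chain Ftl1 was at 249 and 273 in TRMs and 146 and 129 in tumor cells and fell short of 2-fold with the common sum (-0.92), but was called toward TRMs under the other 4 scalings (-1.81 under TMM). Cp, ceruloplasmin, which oxidises iron for export, was higher in tumor cells at 10.4 and 21.1 against 0.501 and 1.13 (4.12 ± 0.48).

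**Figure D5:**
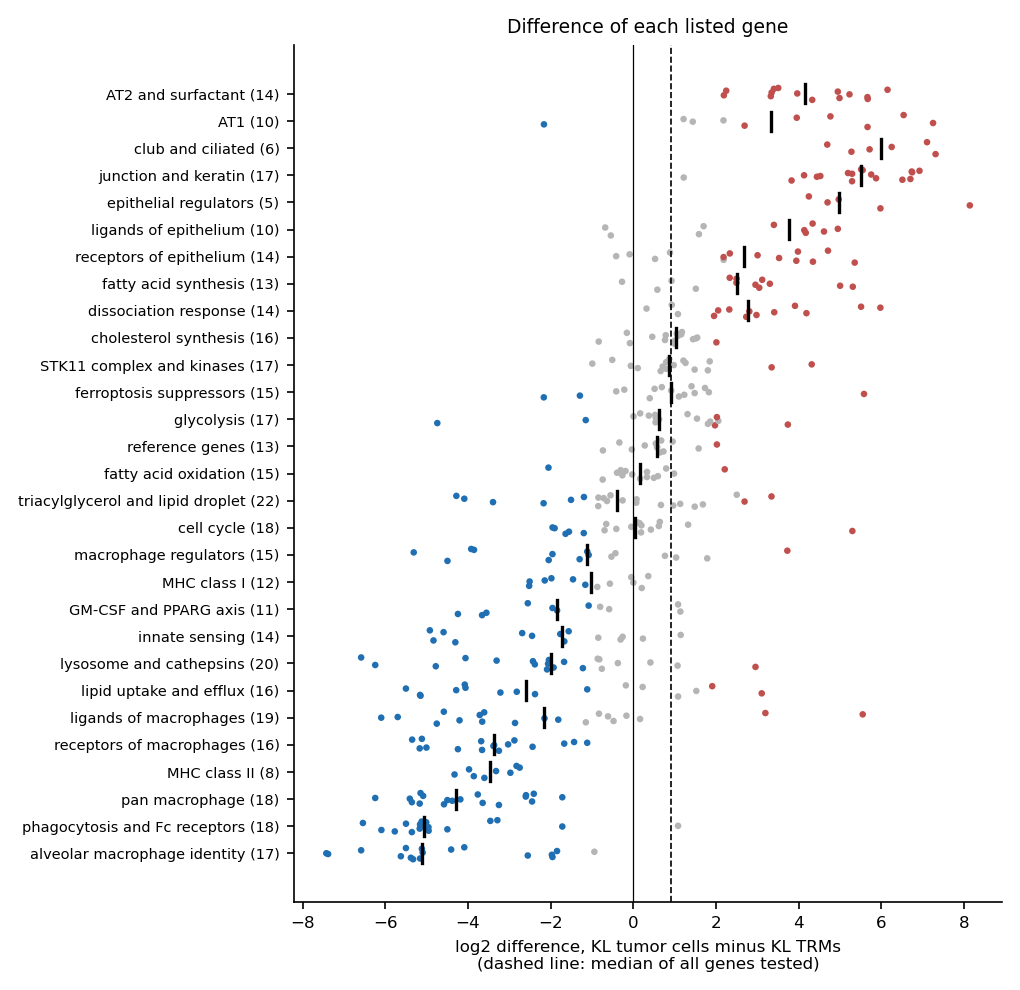
Log2 difference of each tested gene, KL tumor cells minus KL TRMs (x axis), for 29 gene lists (y axis, number of tested genes in parentheses), with a thick bar at the list median and a dashed line at the median of all genes, 0.91. Red and blue points are higher in tumor cells and in TRMs under all 5 scalings, and epithelial lists lie to the right while the macrophage lists lie to the left.

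All 8 tested MHC class II genes were higher in TRMs, with a median log2 difference of -3.46. H2-Ab1 was at 1920.3 and 2257 rescaled RPKM in TRMs and 119 and 173 in tumor cells (log2 difference -3.86 ± 0.25), and Cd74, the invariant chain that AT2 cells also carry, was at 1599 and 1822 against 232 and 279 (-2.75 ± 0.23). Of 12 class I genes, 6 were higher in TRMs and the other 6 were not called under all 5 scalings. B2m, the shared light chain, was at 341 and 379.5 against 64.3 and 61.3 (-2.52 ± 0.22), whereas the heavy chain H2-K1 was at 374 and 428 in tumor cells and 288 and 417 in TRMs and was not called.

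Of 18 phagocytosis and Fc receptor genes, 17 were higher in TRMs, Cd36 being the other. Fcgr1, the high-affinity receptor of IgG, was at 5.04 and 7.80 rescaled RPKM against 0.0483 and 0.0631 in tumor cells (log2 difference -5.36 ± 0.49). Of 20 lysosome genes, 13 were higher in TRMs, among them Ctsd at 602 and 734 rescaled RPKM against 183 and 167 (log2 difference -1.93 ± 0.23). Ctsh, a cathepsin that processes surfactant proteins in AT2 cells, was the only one higher in tumor cells, at 185 and 191 against 23.6 and 24.5 (2.96 ± 0.22). Among 14 tested innate sensing genes, 9 were higher in TRMs. Casp1, the inflammasome protease, was at 54.2 and 55.1 against 1.88 and 2.51 (-4.59 ± 0.29), and Tlr2, a receptor of bacterial lipoproteins, at 24.1 and 28.4 against 0.809 and 1.84 (-4.30 ± 0.40). Nlrp3, the inflammasome sensor, was at 31.1 and 28.2 against 5.09 and 14.6 (-1.76 ± 0.43, and not called without tumor cell replicate 1, adjusted p = 0.0538 in limma), and Tlr7, a sensor of RNA, at 3.48 and 6.42 against 0.0306 and 0.120 (-4.83 ± 0.54).

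For the gene that the model deletes, the values are totals over the gene and cannot tell the alleles apart. Stk11 (chr10:80115803-80130682) was at 29.7 and 31.8 rescaled RPKM in tumor cells, in which loss is designed, and 17.8 and 21.1 in TRMs, and was not called (log2 difference 0.66, adjusted p = 0.0412 in limma, under 2-fold). Under TMM scaling its difference was -0.22. Of 17 tested genes of the STK11 complex and its kinases, 2 were higher in tumor cells. They were Sik1, a kinase activated by STK11, at 37.0 and 46.6 against 1.65 and 2.39 (log2 difference 4.32 ± 0.31), and Prkab1, an AMPK subunit, at 13.3 and 13.6 against 1.24 and 1.23 (3.35 ± 0.33).

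Genes of proliferation were not higher in tumor cells as a list. Of 18 tested, 5 were higher in TRMs, with Mki67 at 23.6 and 24 rescaled RPKM against 6.58 and 8.73 (log2 difference -1.64 ± 0.28). The 1 gene higher in tumor cells was Ccnd1, cyclin D1 of the G1 phase, at 50.6 and 71.9 against 1.65 and 1.24 (5.30 ± 0.31). For glycolysis, 3 of 17 genes were higher in tumor cells and 2 in TRMs, and the hexokinases split, with Hk1 higher in tumor cells (3.74) and Hk3 of myeloid cells higher in TRMs (-4.74). Fatty acid oxidation had 1 gene on each side of 15, Eci1 (2.21) in tumor cells and Ucp2 (-2.05), an uncoupling protein of immune cells, in TRMs. Cpt1a, which admits fatty acids to mitochondria, was at 17.7 and 18.8 in TRMs and 9.09 and 13.1 in tumor cells, under 2-fold with the common sum (-0.74) and called toward TRMs under the other 4 scalings (-1.62 under TMM).

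Genes that respond to tissue dissociation moved with the population. Of 14, 11 were higher in tumor cells, with Fos at 645 and 661 rescaled RPKM against 82.8 and 116 (log2 difference 2.74 ± 0.24), Atf3 at 983 and 1089 against 92.4 and 102 (3.41 ± 0.22), and the heat shock gene Hspa1a, which has the near-identical copy Hspa1b, at 451 and 552 against 5.06 and 11.97 (5.98 ± 0.36). Their part in the differences of other genes was not tested. Of 13 reference genes, 1 was higher in tumor cells, Pgk1 (2.03). Gapdh was at 96.7 and 76.5 against 56.4 and 61.2 (0.55) and Actb at 545 and 545 against 645 and 732 (-0.33), neither called with the common sum. Under TMM scaling Actb was called toward TRMs (-1.22), and Gapdh was at -0.33.

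Markers of other cells that a gate could admit were few among the tested genes. Of 10 T and NK cell genes, 8 were missing from the TRM table, and the only tested gene, Cd2, was at 48.2 and 65.1 rescaled RPKM in TRMs against 1.006 and 2.44 in tumor cells (log2 difference -5.07 ± 0.40). Among 6 tested neutrophil genes, 2 were higher in tumor cells. Ngp was at 12.3 and 27.4 against 1.08 and 1.78 (3.63 ± 0.44). Ltf, lactoferrin, which airway epithelium also secretes, was at 503.5 and 376 in tumor cells against 2.82 and 8.32 (6.46 ± 0.43). S100a9 was at 189.5 and 306 against 157 and 105 and was not called (0.90, and 0.020 under TMM), except toward tumor cells without tumor cell replicate 1 (1.25, adjusted p = 0.00434 in limma) or without TRM replicate 1 (1.19, adjusted p = 0.0102). Fibroblast and smooth muscle genes were low, and 2 of 5 tested were higher in tumor cells. Col3a1 was at 4.19 and 7.19 against 0.387 and 1.39 (2.71 ± 0.56), and Col1a2 was at 1.59 and 2.74 in tumor cells against 0.306 and 0.151 (2.78 ± 0.54, and not called without tumor cell replicate 2, adjusted p = 0.0673 in limma). The endothelial list had 1 gene called of 6, Vwf, at 1.91 and 3.29 in TRMs against 0.685 and 0.435. Of 2 tested dendritic cell genes, 1 was higher in TRMs under all 5 scalings. No B cell or erythroid gene was tested.

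The same comparison was made in KLG4 mice, on 4 libraries that the choice of members did not use. Under all 5 scalings 1901 of 11777 genes (16.1%) were higher in KLG4 tumor cells and 1306 (11.1%) were higher in KLG4 TRMs. Of the 1917 genes higher in KL tumor cells, 1218 (63.5%) had the same call in KLG4 and 5 the opposite one, and of the 1132 higher in KL TRMs, 735 (64.9%) had the same call and 31 the opposite one. Across 11129 genes tested in both genotypes, which are not independent replicates, Pearson's r of the TMM-scaled differences was 0.757.

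The KLG4 tumor cell libraries stood apart from every other pair. They differed by a median of 0.0432 on the log2 scale over genes with more than 5000 reads, against 0.149 in KLG4 TRMs, 0.224 in KL tumor cells and 0.215 in KL TRMs, and their chi-square per gene was 3.42 against 31.4 to 68.8 in the other pairs. Separate mice are stated for this pair, but because its libraries were so close, counts were also made with it as 1 sample. Then 1780 genes were higher in KLG4 tumor cells and 1154 in KLG4 TRMs under all 5 scalings. Sex makeup differed too: Xist was at 5.16 and 4.91 rescaled RPKM in KLG4 tumor cells and 21.3 and 22.3 in KLG4 TRMs, and Eif2s3y was at 8.85 and 9.60 in KLG4 tumor cells and listed at 0 in both KLG4 TRM libraries.

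The epithelial side was alike in number: 16 of 17 junction and keratin genes, 6 of 6 club and ciliated genes and 5 of 5 epithelial regulators were higher in tumor cells in KLG4. Krt8 was at 1559 and 1517 rescaled RPKM in KLG4 tumor cells and 2.34 and 7.33 in KLG4 TRMs, and Dpcr1 at 783 and 774 against 0 and 0. Of 14 AT2 genes, 11 were higher in KLG4 tumor cells. Napsa was at 3.06 and 3.48 in KLG4 tumor cells against 4.67 and 5.26 in KLG4 TRMs, whereas Scgb3a1 was at 761 and 731 against 0.583 and 0.314.

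On the macrophage side, all 17 alveolar macrophage genes were higher in TRMs in KLG4. Ear2 was at 4773 and 4744 rescaled RPKM in KLG4 TRMs and 155.2 and 155.4 in KLG4 tumor cells. Fewer general macrophage genes were called, 11 of 18 in KLG4 against 18 of 18 in KL. Ptprc was at 31.5 and 32.2 in KLG4 tumor cells, above its 0.954 and 2.55 in KL tumor cells, against 86.9 and 81.8 in KLG4 TRMs. Spi1 was at 31.0 and 31.4 in KLG4 tumor cells against 88.2 and 80.2, and Il1b at 491 and 483 against 704 and 920.1. Genes of other cells were high in KLG4 tumor cells as well, with S100a9 of neutrophils at 2335 and 2222 against 110 and 68.3 and the collagen gene Col1a2 at 40.4 and 41.8 against 0.140 and 0.151. The part of leukocytes and of other cells in the KLG4 tumor cell libraries was not tested.

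The difference between the genotypes was tested with an interaction term over the 8 libraries, and 1336 of 12072 genes differed under all 5 scalings, or 607 with the KLG4 tumor cell pair as 1 sample. The KLG4 difference lay further toward tumor cells than the KL difference for 891 of the 1336 genes and for 544 of the 607. With the common sum alone this split turned, with 950 of 5244 genes further toward tumor cells and 4294 the other way.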

How the data were processed

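Bulk RNA of sorted KL and KLG4 tumor cells and TRMs was sequenced from poly(A) libraries that do not mark strand. The authors trimmed reads with Trim Galore 0.6.4, aligned them with HISAT2 2.0.5 to GRCm38 with Ensembl annotation and counted them per gene with featureCounts 2.0.0, per the labels and the methods. The authors deposited RPKM values, 1 table per population, with no factor between libraries, and their methods write FPKM. Because reads were counted without strand, overlapping and antisense genes are uncertain, as are near-identical copies. Each table holds only genes that passed a filter not given in the sources used here, so a gene missing from a table was not compared. The tables also hold the authors' fold changes, F statistics and p-values, which were not used, and their methods name DESeq2. MDM libraries (4) and the other samples were not analysed here. A few genes are not reported here and were left out of the lists.

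Gene names that a spreadsheet had turned into dates were dropped, 21 from the tumor cells and 19 from the TRMs. Values were rescaled to a common sum over the joined genes without 34 mt- genes and tested with limma 3.58.1 in R 4.3.3 with a mean-variance trend on log2(rescaled RPKM + 0.1), two-sided, with no covariate. An exact permutation test of 2 against 2 cannot go below p = 0.333. Depth was recovered from RPKM multiplied by gene length, which gave whole reads within 0.05 for 100% of values below 2000 reads in each library. Between 17.4% and 33.0% of counts below 30 were odd, so both mates were mostly counted and intervals from read totals would be too narrow. Replicates differed by more than counting noise (chi-square per gene 68.8 in KL tumor cells, 31.4 in KL TRMs, 42.4 in KLG4 TRMs and 3.42 in KLG4 tumor cells). The fit was tested on simulated data.

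Members, lists and tests were chosen with earlier results of these data known. Named genes were the 10 largest differences in each direction (at least 20 rescaled RPKM in the higher population, above 0 in all libraries, no overlap), the 5 highest called genes listed at 0 in the other population, the 10 most abundant genes of each population, and members of 43 lists. Alternatives covered pseudocounts of 1 and 0.01, the filter, scaling, the trend, the replicate block, a fit on 8 libraries and leaving out each library. The rescaling without nuclear copies, the requirement of 5 scalings and counting the KLG4 tumor cell pair as 1 sample were added after the data were seen.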

Additional observations from a re-analysis of the deposited data

Results flagged for a closer look

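For 46 of 177 tested genes named in the report, the difference between tumor cells and TRMs differed between KLG4 and KL mice. These 46 did so under all 5 scalings and also with the KLG4 tumor cell pair counted as 1 sample. Over all 12072 genes, 1336 differed under all 5 scalings and 607 with that pair as 1 sample. The values below are the KLG4 difference minus the KL difference on the log2 scale under TMM scaling, from the interaction term in limma over 8 libraries. A positive value means that the KLG4 difference lay further toward tumor cells. The genotypes also differ in sex makeup and in the transcripts of other cells described above, and the part of either in these values was not tested.

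Most of the positive values belonged to genes higher in KL TRMs. Among macrophage identity genes and regulators they were Ptprc 3.71, Itgax 2.57, Ear2 3.39, Spi1 3.95, Tfec 2.95, Adgre1 3.57, Itgam 3.46 and Cx3cr1 3.33. Of the largest TRM differences, H2-M2 gave 4.27, Serpina3g 4.67, Atp6v0d2 2.61, Mcoln3 3.15 and Arl11 5.58. These genes and Ear2 were named for the size of their KL difference, and the interaction term uses the same KL libraries again. The part of that choice in their values was not tested. Among signalling genes, Csf2ra gave 2.80, Csf1 3.99, Il1b 4.93, Osm 3.90, Axl 3.43, Ccl9 3.08, Sirpa 3.07 and Havcr2 3.64. Csf1, low in both KL populations, was at 13.9 and 15.3 rescaled RPKM in KLG4 tumor cells against 2.18 and 2.38 in KLG4 TRMs.

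Among lipid, ferroptosis and glucose genes, Cidec gave 3.596, Apoe 3.63, Slc7a11 3.69, Alox5 3.82, Alox5ap 4.49 and Hk3 3.57. Apoe, higher in TRMs in KL, was at 519 and 526 in KLG4 tumor cells and 510.1 and 598 in KLG4 TRMs. Slc7a11 was at 29.0 and 30.5 in KLG4 tumor cells against 9.95 and 10.5. Among immune genes Fcgr4 gave 4.18, Tlr2 4.55, Casp1 3.02, Nlrp3 4.43 and Cd2 5.10. The neutrophil gene S100a9 gave 4.71 and the collagen genes Col1a2 and Col3a1 gave 5.24 and 5.91.

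Genes higher in KL tumor cells with a larger difference in KLG4 were Dpcr1 (3.85), Scgb3a1 (6.01) and Gas6 (4.60), beside Col1a2 and Col3a1 above. Both KLG4 TRM libraries list Dpcr1 at 0, so its value depends on the pseudocount. Negative values were found for Napsa (-1.90), Hopx (-1.59), Vegfa (-2.19), Pmvk (-1.43), Ctsh (-1.71) and Sik1 (-1.45). The sex-linked genes gave -5.27 for Xist and 7.43 for Eif2s3y. Eif2s3y is also listed at 0 in both KLG4 TRM libraries, so its value depends on the pseudocount as well.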

How the results depend on the processing

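Pseudocounts of 1 and 0.01, no filter on low values, no mean-variance trend and a fit on 8 libraries left each count within 1.5 times its value. Scaling moved them. Genes higher in KL tumor cells numbered 3266 with RPKM as deposited, 2625 without the nuclear copies, 2177 with limma-voom on recovered reads, 2110 with TMM and 2085 with quantile scaling, against 5026. Genes higher in KL TRMs numbered 1729 without the copies, 2150 with limma-voom, 2107 with TMM and 2118 with quantile scaling, against 1136. A mean of at least 5 RPKM, which tests fewer genes, gave 2611 and 681 in KL and 1046 higher in KLG4 tumor cells. The difference between genotypes was called for 5244 genes with the common sum, 3189 as deposited, 2679 with quantile scaling, 2561 with limma-voom, 2254 with TMM, 2129 without the copies and 2018 with the KLG4 tumor cell pair counted as 1 sample.

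Leaving out 1 library gave 3387 to 5929 genes higher in KL tumor cells, 934 to 1259 higher in KL TRMs, 2009 to 2487 and 1588 to 1981 in KLG4, and 2038 to 7274 for the difference between genotypes. That last count fell by over 1.5 times without KL tumor cell replicate 2 (3175), KLG4 TRM replicate 1 (3042) or either KLG4 tumor cell library (2065 and 2038). A lone library is assumed to vary like the other groups.

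The log2 difference changed sign for 8 named genes, none of them called with the common sum. Deposited RPKM gave -0.060 for Gpx4, -0.25 for H2-K1 and -0.28 for Rpl19. Quantile scaling gave -0.28 for Gpx4, -0.36 for H2-K1, -0.065 for Stk11 and -0.14 for Gapdh. TMM gave -0.48 for Gpx4, -0.68 for H2-K1, -0.70 for Rpl19, -0.25 for Myl6, -0.22 for Stk11 and -0.33 for Gapdh. Limma-voom gave -0.48, -0.67, -0.69, -0.24, -0.21 and -0.33 for the same genes in that order. Leaving out the copies gave -0.24 for Gpx4, -0.43 for H2-K1, -0.45 for Rpl19 and -0.087 for Gapdh. With 1 library left out, Pecam1 ranged from -0.43 to 0.36, Dgat2 from -0.65 to 0.13 and H2-K1 from -0.059 to 0.47. Beyond the scalings, the cause was not tested.

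The labels number replicates alike in both populations, but same-numbered libraries share only a number: their deviations correlated at 0.056 across genes. With the replicate block, 5204 genes were higher in KL tumor cells and 1153 in KL TRMs, and of the named genes the block changed the call of Tnf only. TRM depth limits genes near 1 RPKM.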
